A study of Mus musculus with 20 samples.

Results

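The comparison described here sets the effect of experimental autoimmune encephalomyelitis (EAE) on the RNA of neuronal nuclei against its effect on the RNA of the other nuclei of the same tissue. EAE is a model of multiple sclerosis in which immunization sets off immune attack on the brain and spinal cord. All 20 of the 20 libraries and all 43629 of the 43629 genes of the count table entered, and 20444 genes had enough counts to be tested. The 4 groups were NeuN-negative and NeuN-positive nuclei of spinal cords of healthy mice and NeuN-negative and NeuN-positive nuclei of spinal cords of mice with EAE, taken 15 days after active immunization, with 5 libraries in each. NeuN is the nuclear protein encoded by Rbfox3 that marks most neurons and was the sorting marker. The immunizing antigen, the strain, the sex and the age of the mice and the number of animals per library were not stated in the labels, and day 15 is the single time point. Libraries of the 2 sorts that share a condition and a number deviated together, so a number is called 1 mouse below, although the labels do not state it. The main fit has no term for the mouse, and its p-values and standard errors treat the 20 libraries as independent. The numbers enter only the gaps within a mouse, a fit with a term for each mouse and the fits without certain mice. P-values measure the spread between these libraries. The study concerns interferon-induced immunoproteasomes and neuronal metabolism. The difference between the sorts shows which EAE to healthy ratios were higher in one sort than in the other, and not which levels changed by more CPM.

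In EAE, T cells that recognise myelin enter the spinal cord together with monocytes and other leukocytes, the resident microglia are activated, and myelin and its parent cell, the oligodendrocyte, are lost. Interferon-gamma from T cells induces genes of antigen presentation, among them the immunoproteasome subunits, in many cell types. Oligodendrocytes, astrocytes, microglia, vascular cells and leukocytes are expected among NeuN-negative nuclei, and neurons among NeuN-positive nuclei. In bulk RNA of a sort, a smaller share of nuclei of a type and less RNA per nucleus of that type cannot be told apart.

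For each gene the log2 ratio of EAE to healthy was estimated in each sort with edgeR, and the value for NeuN-negative nuclei was subtracted from the value for NeuN-positive nuclei. This quantity, called the difference below, is given on the log2 scale with its standard error (±) and an adjusted p (quasi-likelihood F test, Benjamini-Hochberg over the 20444 genes), and a gene was called when that p was under 0.05. A positive difference means that a gene rose more, or fell less, in NeuN-positive than in NeuN-negative nuclei. By construction it is also the change, from healthy to EAE, of the gap between the 2 sorts. Levels are in CPM, counts scaled to a common library total, and levels of different genes are not compared, because CPM is not scaled by gene length.

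Libraries held between 3149209 and 37689267 counts, and the shallowest 2 were EAE NeuN-negative 2 and 4. The labelled sorts differed in their markers as named: the 20 neuron genes took 0.202 to 0.746% of the counts of NeuN-negative and 3.75 to 6.8% of NeuN-positive libraries. The 26 oligodendrocyte genes took 4.45 to 11.7% of NeuN-negative libraries. In NeuN-positive libraries they took 0.407 to 1.47% in 7 of 10, but 9.15% in EAE 2, 4.45% in EAE 4 and 3.85% in healthy 3. The NeuN-positive libraries of these 3 mice also held the most mitochondrially encoded counts, at 9.35, 5.3 and 3%, and each result below was recomputed without the 3 mice. Transcripts of olfactory and vomeronasal receptor genes, which spinal cord is not known to use, summed to a median of 573.6 CPM in EAE NeuN-negative, 123.8 in EAE NeuN-positive, 61.53 in healthy NeuN-negative and 33.46 in healthy NeuN-positive libraries, and were highest in EAE NeuN-negative 2 and 4 (2775 and 2320 CPM). In the same libraries the repeat-like genes Gm10800 and Gm10801 took 23.61 and 13.75% of counts.

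**Figure D1:**
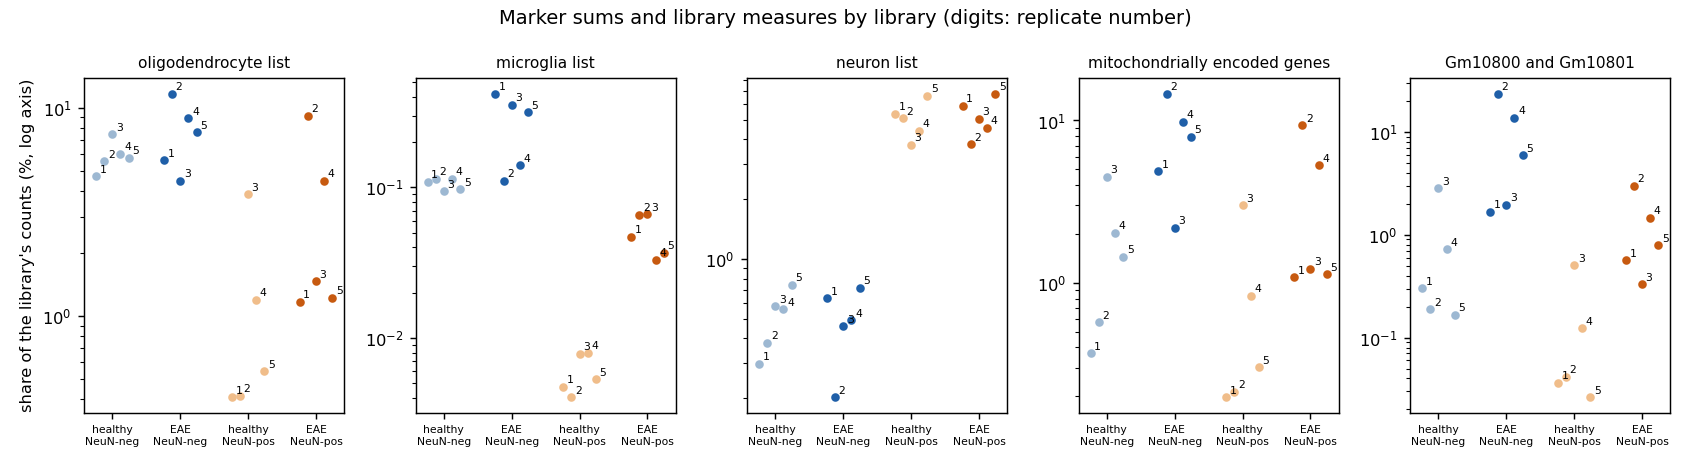
Share of each library's counts (%, log axis) taken by the oligodendrocyte, microglia and neuron lists, by mitochondrially encoded genes and by Gm10800 with Gm10801, one point per library with its replicate number, in the 4 groups. The NeuN-positive libraries EAE 2 (9.15%), EAE 4 (4.45%) and healthy 3 (3.85%) stand above the other NeuN-positive libraries in the oligodendrocyte panel.

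The EAE effect differed between the sorts for 524 genes, of which 356 had a higher and 168 a lower EAE to healthy ratio in NeuN-positive nuclei. These counts are 1.74% and 0.822% of the genes tested, which is the background for the counts of each list below. The genes of the first kind were mostly genes of NeuN-negative nuclei: 316 of 356 were higher in NeuN-negative nuclei of healthy mice (11449 of the 20444 tested genes were), with a median EAE effect of -1.83 in NeuN-negative and 0.195 in NeuN-positive nuclei. Of these 356, 138 fell in both sorts by the sign of their estimates, 182 had opposite signs and 36 rose in both. The 168 genes of the second kind were the reverse: 164 were higher in NeuN-positive nuclei of healthy mice, with a median EAE effect of 2.54 in NeuN-negative and -0.487 in NeuN-positive nuclei. Of those, 117 had opposite signs and 51 rose in both. The healthy gap between the sorts is part of the quantity the genes were called on, so these counts are a description. Over all tested genes the median effects were 0.0163 and -0.00478, and the median difference was 0.145.

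The gap between the sorts (log2 NeuN-positive minus NeuN-negative) was smaller in absolute size in EAE for most called genes, and it changed sign for most of those with a negative difference. Its median moved from -2.07 in healthy to -0.0539 in EAE over the genes with a positive difference, and from 2.21 to -1.07 over those with a negative one. The absolute gap was smaller in EAE for 71.9% and 71.4% of them, against 49.4% of all tested genes. The gap had the opposite sign in EAE for 134 of the 356 and 128 of the 168, against 5050 of the 20444 tested genes. Since these genes were called on that gap, the shares and counts are a description. Within the pairs of libraries of the same number, the median gap of the genes with a positive difference was -0.000536, 0.725, -0.807, 0.475 and -0.115 in EAE mice 1 to 5 and between -2.39 and -1.71 in the 5 healthy mice. The corresponding gap of the oligodendrocyte list was -2.1, -0.387, -3, -1.24 and -2.58 in EAE mice 1 to 5 and between -4.9 and -2.93 in healthy mice, so it was smallest in EAE 2 and EAE 4, the mice whose NeuN-positive libraries held the most oligodendrocyte counts. The neuron list gap was 1.91 to 2.45 in EAE and 1.07 to 2.63 in healthy mice. For the oligodendrocyte list and the neuron list alike, the ranges of EAE and healthy mice overlapped.

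The number of calls depended on the fit. With a term for each mouse (replicate block), 1992 genes were higher (9.74%) and 500 lower (2.45%), and they shared 353 and 153 with the calls above. With DESeq2 size factors the split was 236 to 236 in place of 356 to 168, and the median of all differences moved by -0.252. Without the 3 mice the counts were 363 and 362, of which 227 and 109 were shared. Leaving out single libraries gave 63 to 754 higher and 21 to 353 lower genes.

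**Figure D2:**
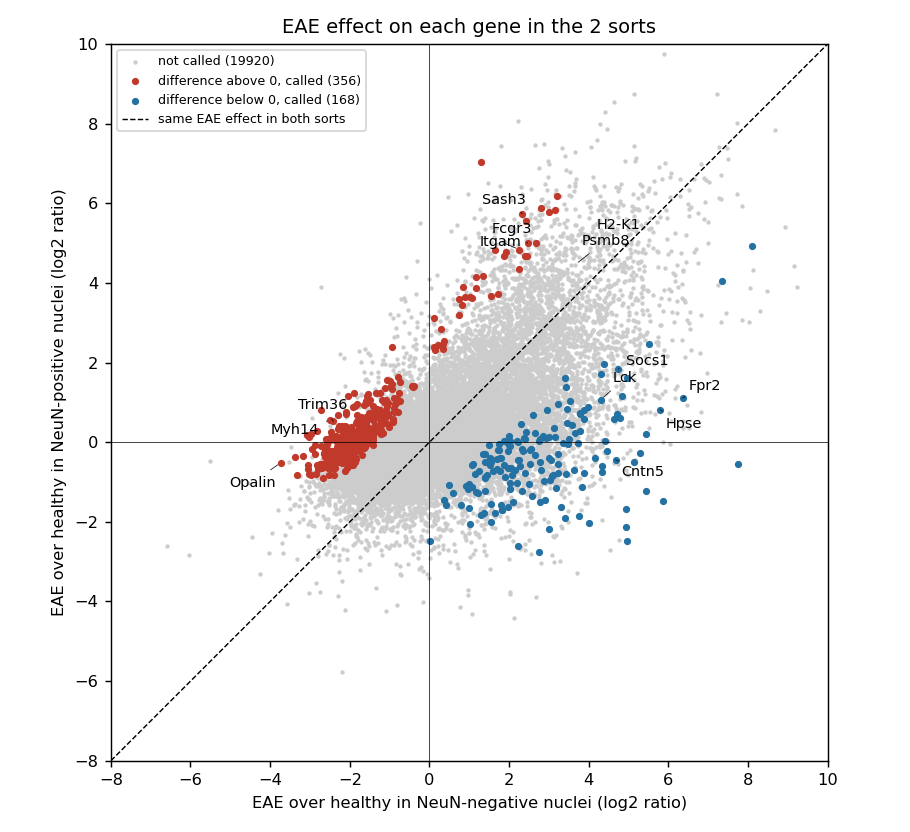
EAE effect (log2 ratio of EAE to healthy) of each of the 20444 tested genes in NeuN-negative nuclei (horizontal axis) against that in NeuN-positive nuclei (vertical axis), with the dashed line where both are equal. The 356 genes called with a positive difference (red) lie mostly at a fall in NeuN-negative and little change in NeuN-positive nuclei, and the 168 with a negative difference (blue) at a rise in NeuN-negative nuclei.

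Genes of myelin and of mature oligodendrocytes gave the most calls of any list. All lists were chosen with earlier results of these data known, so their counts are a description. Of the 26 oligodendrocyte genes, 10 had a higher EAE effect in NeuN-positive nuclei (1.74% of all tested genes did) and 0 a lower one, with a median difference of 1.83 beside 0.145 over all tested genes. Their median EAE effect was -1.95 in NeuN-negative nuclei, where they were mainly expressed, and -0.048 in NeuN-positive nuclei. Opalin, a protein of oligodendrocyte membranes at the inner loops and paranodes of myelin, led the list. The replicate block called 17 of the 26 and the fit without the 3 mice called 4. The NeuN-positive libraries EAE 2, EAE 4 and healthy 3, with oligodendrocyte shares of 9.15, 4.45 and 3.85%, were high in Mbp and Mobp, which were not called. Mbp stood there at 57422, 27769 and 30941 CPM and Mobp at 38406, 20793 and 11581 CPM. Called genes followed in part. Opalin stood at 6.97, 6.77 and 7.76 CPM, within the range of all other NeuN-positive libraries. In EAE 2 and EAE 4 it lay above the other EAE NeuN-positive libraries (2.19 to 4.78 CPM). The same held for Mal, Cnp, Trf, Apod, Ugt8a and Il33, whereas Fa2h and Cldn11 did not lie above the others in both. Without the 3 mice the difference of Opalin was 2.26. Cldn11 stood at 89.7, 47.4 and 17.1 CPM, so it was highest in EAE 2 and not raised in healthy 3. The part of these libraries in the differences was not tested beyond the fit without the 3 mice.

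Opalin (chr19:41061710-41077113 in GRCm38) stood at 237, 327, 185, 328 and 194 CPM in healthy NeuN-negative replicates 1 to 5 and at 20.5, 8.06, 29.4, 7.37 and 28.9 CPM in EAE NeuN-negative replicates 1 to 5. In NeuN-positive nuclei it stood at 5.7, 4.09, 7.76, 10.5 and 5.58 CPM in healthy and at 4.78, 6.97, 2.19, 6.77 and 3.15 CPM in EAE libraries. Every EAE NeuN-negative library lay below every healthy one, whereas the NeuN-positive groups overlapped. Opalin thus fell 13.3-fold in NeuN-negative nuclei (log2 -3.73 ± 0.42), its estimate in NeuN-positive nuclei was -0.51 ± 0.39, and the difference was 3.22 ± 0.56 (adjusted p = 0.00569). It was called in all 20 fits that left out a library. The within-mouse gap between the sorts was -2.09, -0.209, -3.73, -0.12 and -3.18 in EAE mice 1 to 5 and -5.37, -6.31, -4.57, -4.97 and -5.11 in healthy mice 1 to 5, without overlap.

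The other called members given here, named after their values were seen except Mal, differed by 1.87 to 2.54. Mal, a proteolipid of compact myelin, had a difference of 2.38 ± 0.57 (adjusted p = 0.0265), and its level in NeuN-negative nuclei was 708, 1028, 325, 549 and 1265 CPM in healthy and 185, 38.7, 265, 101 and 173 CPM in EAE libraries. In NeuN-positive nuclei Mal stood at 48.9, 36.4, 52.8, 60.7 and 55.8 CPM in healthy and 49.8, 58.6, 44.2, 76.8 and 31.3 CPM in EAE libraries, which overlapped. The enzymes of myelin lipid synthesis Ugt8a (2.17 ± 0.52) and Fa2h (2.19 ± 0.53), the enzyme Cnp (1.87 ± 0.45), the tight junction protein Cldn11 (2.49 ± 0.63), the iron carrier Trf (2.54 ± 0.61), the lipocalin Apod (2.13 ± 0.53) and the alarmin Il33 (2.20 ± 0.56) followed, with adjusted p from 0.027 to 0.0347. Not all of these fell in NeuN-negative nuclei: Apod rose in NeuN-positive nuclei (2.47 ± 0.39) with an estimate of 0.34 ± 0.37 in the NeuN-negative ones. Trf and Cldn11 had estimates of opposite sign, -0.99 ± 0.43 and -1.25 ± 0.44 in NeuN-negative and 1.55 ± 0.44 and 1.25 ± 0.45 in NeuN-positive nuclei. Apod and Trf lost their calls with DESeq2 size factors (adjusted p = 0.0517 and 0.0502). Of these 7, Fa2h stayed called without the 3 mice (adjusted p = 0.0472), as did Opalin and Mal (0.0151 and 0.0367). The other 6 had adjusted p from 0.0571 to 0.103 in that fit.

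The differences of other myelin genes were not called. Mbp, myelin basic protein, stood at 9581, 12692, 37081, 18052 and 15883 CPM in healthy and 21592, 61277, 12412, 40877 and 30043 CPM in EAE NeuN-negative libraries, and at 1842, 2113, 30941, 7204 and 2766 CPM in healthy and 5569, 57422, 6975, 27769 and 6627 CPM in EAE NeuN-positive libraries. Its values were highest in the libraries with the most mitochondrial counts (healthy 3, EAE 2 and EAE 4 in both sorts), and all groups overlapped. The difference was 0.38 ± 1.04 for Mbp (95% interval -1.75 to 2.52, adjusted p = 0.887) and 0.59 ± 1.03 for Mobp (-1.53 to 2.71, adjusted p = 0.812). Both turned negative without EAE NeuN-positive 2 (-0.58 and -0.35) and when both sorts of EAE 2 and EAE 4 were left out (-0.66 and -0.56), and Mbp also without healthy NeuN-negative 3 (-0.26). Mog and Mag, other myelin proteins, had differences of 2.13 ± 0.60 and 1.82 ± 0.69 that missed the threshold (adjusted p = 0.0512 and 0.145) and passed it with the replicate block (adjusted p = 0.00561 and 0.0202).

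Trim36, a ubiquitin ligase of the TRIM family, and Myh14, a non-muscle myosin heavy chain, showed the same form and shared the smallest adjusted p reached by any gene (0.00399). Trim36 stood at 106, 127, 89.6, 113 and 122 CPM in healthy and 22.7, 11.9, 26.9, 13.7 and 28.8 CPM in EAE NeuN-negative libraries, which did not overlap. In NeuN-positive libraries it stood at 16, 18.1, 10.8, 20.7 and 23.8 CPM in healthy and 25.8, 20.4, 16.1, 29.6 and 36.8 CPM in EAE, which did. Its EAE effect was -2.41 ± 0.31 and 0.52 ± 0.30, a difference of 2.94 ± 0.43. For Myh14 the levels were 543, 647, 833, 537 and 279 CPM and 94.2, 63.5, 144, 67.3 and 137 CPM in healthy and EAE NeuN-negative libraries, and 301, 308, 484, 326 and 179 CPM in healthy and 544, 439.8, 303, 521 and 537 CPM in EAE NeuN-positive libraries. Its EAE effect was -2.49 ± 0.35 in NeuN-negative and 0.55 ± 0.33 in NeuN-positive nuclei, and the difference was 3.04 ± 0.48. Myh14 was well expressed in both sorts of healthy mice. Pls1, an actin-bundling plastin (difference 3.01 ± 0.51, adjusted p = 0.00516), Mcam, an adhesion molecule of vascular cells (3.11 ± 0.74, adjusted p = 0.0258), and Olfml1, a secreted olfactomedin-domain protein (3.26 ± 0.72, adjusted p = 0.0192), also fell in NeuN-negative nuclei, by 10.3-, 7.11- and 8.47-fold. Olfml1 lost its call without the 3 mice (adjusted p = 0.0769).

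**Figure D3:**
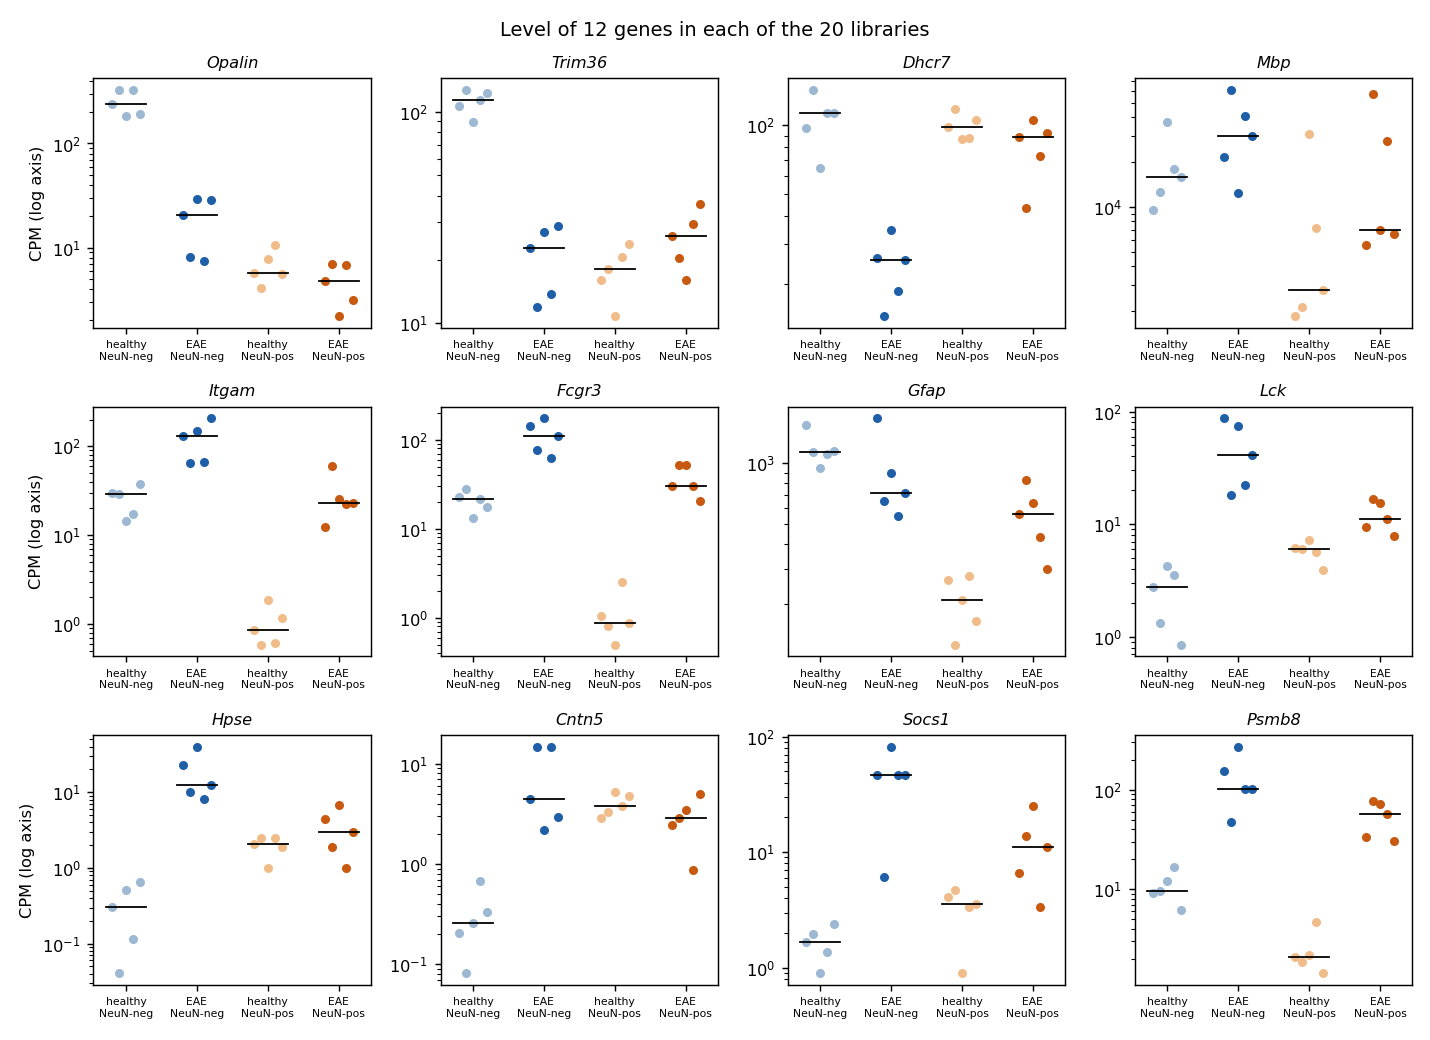
CPM (log axis) of 12 genes in each of the 20 libraries, in the 4 groups, with the group median as a line. Opalin, Trim36 and Dhcr7 were low in EAE NeuN-negative libraries and overlapped between the NeuN-positive groups, and Lck, Hpse and Cntn5 had their lowest group median in healthy NeuN-negative libraries.

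Enzymes of cholesterol synthesis, which oligodendrocytes need for myelin and neurons also express, had positive differences for the most part. Of 23 genes, 2 had a positive difference that was called (1.74% of all tested genes did) and 0 a negative one (0.822%). An estimate above 0 was found for 21 of them and for 11419 of the 20444 tested genes. The median was 1.17 beside 0.145 over all tested genes. The median EAE effect was -1.41 in NeuN-negative and -0.304 in NeuN-positive nuclei. The replicate block called 15 of the 23, all positive, and 9.74% of all tested genes higher. Dhcr7, the enzyme of a last step of the pathway, stood at 97, 143, 64.7, 113 and 113 CPM in healthy and 26.2, 14.5, 34.8, 18.8 and 25.6 CPM in EAE NeuN-negative libraries, and at 98.1, 118, 87.3, 88.2 and 105 CPM in healthy and 88.3, 43.4, 105, 72.9 and 92.2 CPM in EAE NeuN-positive libraries. It was about as abundant in both sorts of healthy mice, fell 4.4-fold in NeuN-negative nuclei without overlap, and its NeuN-positive groups overlapped. The difference was 1.83 ± 0.41 (adjusted p = 0.0192), and the within-mouse gap lay between 1.58 and 1.95 in all 5 EAE mice. Msmo1, a sterol demethylation enzyme, had a difference of 1.74 ± 0.44 (adjusted p = 0.0347).

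Genes of oligodendrocyte precursors and astrocytes leaned the same way, with few calls. All 13 precursor genes tested had an estimate above 0 (median 1.38), and 1 was called (1.74% of all tested genes were called higher). It was Pdgfra, the growth factor receptor that defines these cells, at 2.48 ± 0.65 (adjusted p = 0.0393), and its NeuN-positive level in EAE was highest in EAE 2 (21.4 CPM, against 2.82 to 7.06 CPM in the others). All 18 astrocyte genes had an estimate above 0 (median 1.48), and 1 was called. It was Gfap, the intermediate filament of astrocytes, which stood at 1544, 1139, 945, 1112 and 1147 CPM in healthy and 1674, 648, 897, 547 and 710.3 CPM in EAE NeuN-negative libraries. In NeuN-positive libraries Gfap stood at 265, 126, 211, 275 and 165 CPM in healthy and 561, 829, 639, 430.1 and 300.1 CPM in EAE, without overlap. Its estimates were -0.40 ± 0.35 and 1.41 ± 0.35, with a difference of 1.80 ± 0.50 (adjusted p = 0.0467). The water channel Aqp4 had a difference of 2.17 ± 0.65 that was not called (adjusted p = 0.068) and was with the replicate block (adjusted p = 0.00465), which called 7 precursor and 11 astrocyte genes. The block called 9.74% of all tested genes higher. Pdgfra and Gfap lost their calls with DESeq2 size factors (adjusted p = 0.0678 and 0.0663) and without the 3 mice (0.0518 and 0.142). The list of genes of reactive astrocytes had 1 call of 30, again Gfap, and a median of 0.591.

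The microglial genes that were called had a higher EAE effect in NeuN-positive nuclei, where the healthy level of the list was very low. Of 18 genes, 6 were called with a positive difference (1.74% of all tested genes were) and 0 with a negative one, all 18 estimates were above 0, and the median was 1.79. The median EAE effect was 0.669 in NeuN-negative and 2.6 in NeuN-positive nuclei. The summed level of the list was 0.0943 to 0.114% of counts in healthy and 0.111 to 0.42% in EAE NeuN-negative libraries, and 0.00403 to 0.00799% in healthy and 0.0332 to 0.0665% in EAE NeuN-positive libraries. The NeuN-positive level in EAE thus lay under that of healthy NeuN-negative libraries. How far microglial RNA or nuclei within the NeuN-positive sort made up these rises was not tested.

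Itgam, the integrin chain CD11b of microglia and other myeloid cells, stood at 30, 28.9, 14.6, 17.5 and 37.5 CPM in healthy and 129, 64.5, 147, 66.1 and 207 CPM in EAE NeuN-negative libraries. In NeuN-positive libraries it stood at 0.849, 0.585, 1.89, 0.617 and 1.16 CPM in healthy and 12.4, 59.6, 25.3, 22.2 and 23.3 CPM in EAE. Both pairs of groups were apart, and EAE NeuN-positive 2 was the highest of its group. The rise was 4.77-fold in NeuN-negative and 28.6-fold in NeuN-positive nuclei, a difference of 2.58 ± 0.59 (adjusted p = 0.0204). Selplg, the P-selectin ligand (2.56 ± 0.55), Trem2, a lipid receptor of microglia (2.74 ± 0.71), Csf1r, the receptor they depend on (2.46 ± 0.62), the complement chain C1qc (2.11 ± 0.51) and Tmem119, a marker of resident microglia (2.01 ± 0.48), were called too, with adjusted p from 0.0178 to 0.0371. The last 4 of them were named after their values were seen. Cx3cr1 and P2ry12, receptors of resting microglia, had differences of 1.81 ± 0.59 and 2.06 ± 0.66 that were not called (adjusted p = 0.0924 and 0.0844) but were with the replicate block (0.00438 and 0.0383), which called 11 of the 18.

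Genes of invading myeloid cells had high EAE to healthy ratios in both sorts. Of 20 monocyte and macrophage genes, 1 was called higher and 0 lower (1.74% and 0.822% of all tested genes were). The median EAE effect was 5.05 in NeuN-negative and 5.23 in NeuN-positive nuclei, and the median difference was 0.695. The call was Cd14, the coreceptor for bacterial lipopolysaccharide, at 2.87 ± 0.56 (adjusted p = 0.0114). Its NeuN-positive level started low, at 0.0995 to 0.39 CPM in healthy libraries, and had a mean of 8.21 CPM in EAE. In NeuN-negative libraries the means were 8.15 CPM in healthy and 30.8 CPM in EAE. Lyz2, lysozyme of macrophages and neutrophils, rose 45.6-fold and 82.9-fold, and its difference was 0.86 ± 0.77 (95% interval -0.71 to 2.43, adjusted p = 0.59). It turned to -0.08 without the 3 mice. None of 12 neutrophil and none of 11 B cell genes was called (medians -0.227 and 0.0219). Of 29 cytokine, chemokine and complement genes 0 were called, with a median of 0.736. At an unadjusted p under 0.05 edgeR gave 3 of the neutrophil, 1 of the B cell and 8 of the cytokine genes, DESeq2's Wald test called 1, 1 and 2 after adjustment, and limma voom called 3, 1 and 7. Of all 20444 tested genes, 3724 passed at the unadjusted p, and the Wald test called 1529 and limma voom 4926.

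Several leukocyte genes were among the largest positive differences. Sash3, an adaptor of lymphocytes, stood at 9.91, 8.82, 4.52, 8.09 and 5.16 CPM in healthy and 38.7, 16.8, 55.8, 33.6 and 38.3 CPM in EAE NeuN-negative libraries, and at 0.05, 0.26, 0.199, 0.0685 and 0.105 CPM in healthy and 6.64, 14.1, 7.82, 6.05 and 5.06 CPM in EAE NeuN-positive libraries. It rose 5.02-fold and 53.5-fold, a difference of 3.41 ± 0.61 (adjusted p = 0.00648), and was at most 0.26 CPM in healthy NeuN-positive nuclei. Similar low starting levels in NeuN-positive nuclei were found for the actin regulator Gmfg (3.12 ± 0.73), the tetraspanin Cd53 (3.06 ± 0.84), the inflammasome protein Nlrc4 (3.06 ± 0.83) and the chemokine Ccl22 (3.01 ± 0.67), with adjusted p from 0.0192 to 0.0457. Tnfaip6, a hyaluronan-binding protein of inflammation, differed from these: it was lower in EAE than in healthy NeuN-negative nuclei (log2 -1.89 ± 0.57), with a difference of 3.12 ± 0.82 (adjusted p = 0.04). Cd53, Nlrc4 and Tnfaip6 lost their calls with DESeq2 size factors (adjusted p = 0.0563, 0.073 and 0.0673). Cd53 lost its call with the replicate block too (adjusted p = 0.0741), and its EAE NeuN-positive level was 37.2 CPM in replicate 2 against 4 to 9.37 in the others. Without the 3 mice Cd53, Nlrc4, Gmfg and Tnfaip6 had adjusted p of 0.176, 0.0719, 0.0892 and 0.138.

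The genes of activated phagocytes split. Of 32, 2 were called higher and 1 lower (1.74% and 0.822% of all tested genes were), with a median difference of 0.657. The replicate block called 7 and 1 (9.74% and 2.45% of all tested genes). Fcgr3, a receptor for antibody Fc parts, stood at 22.9, 27.7, 13.2, 21.4 and 17.4 CPM in healthy and 144, 76.5, 175, 62.2 and 109.7 CPM in EAE NeuN-negative libraries. In NeuN-positive libraries it stood at 1.05, 0.812, 0.497, 2.54 and 0.877 CPM in healthy and 30.3, 51.5, 52.6, 30.4 and 20.3 CPM in EAE. It rose 5.53-fold and 32-fold in the 2 sorts, without overlap in either, and the difference was 2.53 ± 0.53 (adjusted p = 0.0158; 0.055 without the 3 mice). Tyrobp, the signalling adaptor of such receptors, had a difference of 2.24 ± 0.61 (adjusted p = 0.0453), lost with DESeq2 size factors (0.0683) and without the 3 mice (0.272).

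Hpse, the heparanase that cleaves heparan sulfate of the extracellular matrix, was the exception in that list. It stood at 0.305, 0.0406, 0.516, 0.114 and 0.645 CPM in healthy and 22.7, 10, 40, 8.18 and 12.5 CPM in EAE NeuN-negative libraries, and every EAE value lay above every healthy one. In NeuN-positive libraries it stood at 2.05, 2.47, 0.995, 2.47 and 1.89 CPM in healthy and 4.5, 1.9, 6.82, 1.01 and 3.02 CPM in EAE, and these overlapped. The rise was 55.4-fold in NeuN-negative nuclei (log2 5.79 ± 0.69), the estimate in NeuN-positive nuclei was 0.82 ± 0.56, and the difference was -4.97 ± 0.85 (adjusted p = 0.00516). The gap between the sorts was 2.63, 5.12, 0.905, 4.1 and 1.51 in healthy mice and -2.33, -2.38, -2.55, -2.98 and -2.04 in EAE mice, so Hpse was higher in NeuN-positive nuclei of all 5 healthy mice and in NeuN-negative nuclei of all 5 EAE mice. Fpr2, a receptor for formylated peptides on phagocytes, had the same form. It stood at 0.203, 0.122, 2.07, 0 and 0.0516 CPM in healthy and 42.8, 22.3, 58.4, 12.7 and 18.3 CPM in EAE NeuN-negative libraries, and at 4.2, 4.35, 5.77, 3.63 and 3.9 CPM in healthy and 8.71, 4.6, 15.3, 7.93 and 10.2 CPM in EAE NeuN-positive libraries. Its difference was -5.25 ± 0.93 (adjusted p = 0.00648). Hpse and Fpr2 were called in all 20 fits without a library, and without the 3 mice (adjusted p = 0.00373 and 8.49e-05).

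**Figure D4:**
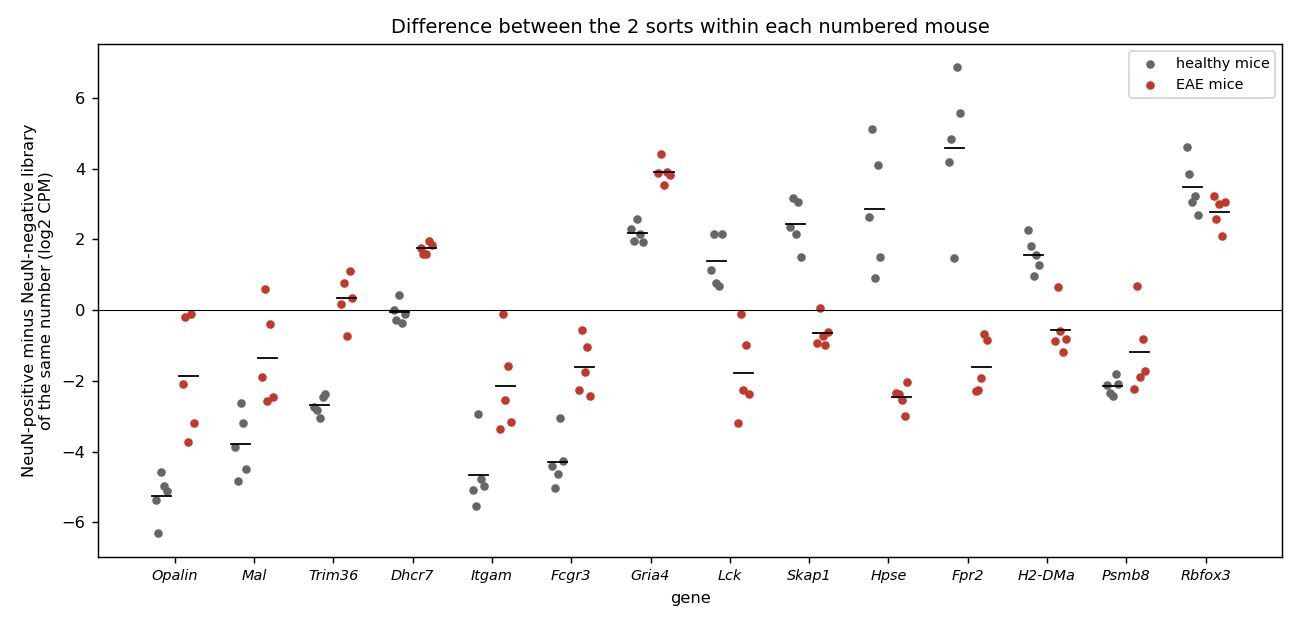
Log2 CPM of the NeuN-positive minus the NeuN-negative library of the same number, for 14 genes, in 5 healthy and 5 EAE mice, with the mean as a line. Healthy and EAE mice do not overlap for Opalin, Mal, Trim36, Dhcr7, Fcgr3, Gria4, Lck, Skap1, Hpse, Fpr2 and H2-DMa, and overlap for Itgam, Psmb8 and Rbfox3.

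The T cell genes that were called all had a lower EAE effect in NeuN-positive nuclei, and most of the list was not called. Of 26 genes, 5 were called lower (0.822% of all tested genes were) and 0 higher, 23 estimates were below 0, and the median was -1.37. The median EAE effect was 4.55 in NeuN-negative and 2.93 in NeuN-positive nuclei. Without Thy1, which neurons express strongly, the list took 0.00177 to 0.00462% of counts in healthy and 0.0327 to 0.0675% in EAE NeuN-negative libraries. In NeuN-positive libraries it took 0.00438 to 0.00783% in healthy and 0.0074 to 0.0205% in EAE.

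Lck, the kinase that starts T cell receptor signalling, stood at 2.75, 1.34, 4.26, 3.53 and 0.851 CPM in healthy and 87.2, 18.1, 74.3, 22.3 and 40.8 CPM in EAE NeuN-negative libraries, without overlap. NeuN-positive libraries held it at 6.1, 6.08, 7.26, 5.69 and 3.9 CPM in healthy and 9.49, 16.6, 15.5, 11.2 and 7.88 CPM in EAE, which did not overlap either. It rose 19.8-fold in NeuN-negative nuclei, the estimate in NeuN-positive nuclei was 1.07 ± 0.43, which did not pass the test, and the result was a difference of -3.24 ± 0.62 (adjusted p = 0.00932). The within-mouse gap was 1.14, 2.15, 0.765, 0.683 and 2.15 in healthy and -3.2, -0.118, -2.26, -0.986 and -2.37 in EAE mice, so Lck was higher in NeuN-positive nuclei of all 5 healthy mice and in NeuN-negative nuclei of all 5 EAE mice. Skap1, an adaptor of the same receptor pathway, had 1.53, 0.894, 4.52, 1.71 and 1.34 CPM in healthy and 28.9, 30, 17.4, 37.6 and 28.8 CPM in EAE NeuN-negative libraries, and 7.89, 8.22, 20.1, 14.3 and 3.82 CPM in healthy and 15.1, 31.1, 10.5, 19 and 18.8 CPM in EAE NeuN-positive libraries. Its difference was -3.09 ± 0.62 (adjusted p = 0.0121).

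The receptor-proximal kinase Zap70 (-2.88 ± 0.70), the adaptor Lat (-2.70 ± 0.61) and the transcription factor Bcl11b (-1.91 ± 0.48) completed the called members, with adjusted p from 0.0192 to 0.0315, and were named after their values were seen. All 5 were more abundant in NeuN-positive than NeuN-negative nuclei of healthy mice (log2 1.13 to 2.49), and Bcl11b is also a transcription factor of neurons. Cd3e, a chain of the T cell receptor complex, and Cd4, the coreceptor of helper T cells, had healthy gaps of -1.55 and -0.92 (log2 NeuN-positive minus NeuN-negative) that did not pass the test. They rose in both sorts, by 26.9- and 38.2-fold in NeuN-negative and 12.1- and 20.3-fold in NeuN-positive nuclei. Their differences were -1.15 ± 0.98 and -0.92 ± 0.80 (95% intervals -3.17 to 0.86 and -2.56 to 0.73, adjusted p = 0.571 and 0.585), and that of Cd3e was 0.24 without healthy NeuN-positive 3 and 0.08 without the 3 mice. Thy1 had a difference of -0.73 ± 0.48 (adjusted p = 0.432). The replicate block called 9 T cell genes, all lower.

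The other large negative differences were of genes at a few CPM. Cntn5, a contactin that mediates adhesion of neurons, stood at 0.203, 0.0813, 0.258, 0.683 and 0.335 CPM in healthy and 4.49, 14.8, 2.18, 14.7 and 2.94 CPM in EAE NeuN-negative libraries, and at 2.85, 3.31, 5.27, 3.77 and 4.81 CPM in healthy and 2.43, 2.85, 3.43, 0.865 and 4.99 CPM in EAE NeuN-positive libraries. Its difference was -5.12 ± 0.92 (adjusted p = 0.00648), and its EAE NeuN-negative level was highest in replicates 2 and 4. Those are the libraries with the most olfactory receptor counts (2775 and 2320 CPM) and the fewest total counts, and the part of such reads in this result was not tested. The same 2 libraries were highest of their group for Fstl4, a secreted follistatin-like protein (-4.95 ± 0.95), the serotonin receptor Htr1d (-4.92 ± 1.08), the DNA sensor Tlr9 (-5.16 ± 1.39), the adaptor subunit Ap1m2 (-4.56 ± 1.20), the homeobox factor Nkx6-3 (-4.36 ± 1.04), the myosin Myo1h (-4.35 ± 1.06), the secreted phospholipase Pla2g5 (-4.34 ± 0.94) and the channel subunit Cngb1 (-4.32 ± 1.05).

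Htr1d shows how uneven this was: its EAE NeuN-negative values were 0.663, 21.6, 1.57, 18.8 and 3.37 CPM, against 0.661, 0.691, 1.68, 0.911 and 0.696 CPM in healthy libraries. Without the 3 mice the adjusted p was 0.221 for Tlr9, 0.0924 for Ap1m2, 0.128 for Myo1h and 0.0548 for Pla2g5, so these calls were lost, and it was 0.0138 to 0.0499 for the other 5. Htr1d and Ap1m2 also lost their calls with the replicate block (adjusted p = 0.052 and 0.058). Ceacam16, a protein of the inner ear matrix, differed in form, with 6.56, 2.26, 9.13, 2.66 and 3.54 CPM in EAE and 0.61, 0.447, 0, 0.114 and 0.335 CPM in healthy NeuN-negative libraries and its highest values in EAE 1 and EAE 3. Its difference was -4.66 ± 1.18 (adjusted p = 0.0342).

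Interferon-stimulated genes had similar median EAE effects in both sorts. Of 67 genes, 1 was called higher and 1 lower (1.74% and 0.822% of all tested genes were). The median EAE effect was 2.95 in NeuN-negative and 3 in NeuN-positive nuclei, and the median difference of 0.157 was close to that of all genes (0.145). With DESeq2 size factors it was -0.0339. The replicate block called 5 and 2. The median of the list was -0.41 without the 3 mice, against -0.0248 over all genes of that fit, with 0 called higher and 3 lower. The windows upstream of both called genes are printed here because both genes are induced by interferon and their differences have opposite signs.

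Socs1: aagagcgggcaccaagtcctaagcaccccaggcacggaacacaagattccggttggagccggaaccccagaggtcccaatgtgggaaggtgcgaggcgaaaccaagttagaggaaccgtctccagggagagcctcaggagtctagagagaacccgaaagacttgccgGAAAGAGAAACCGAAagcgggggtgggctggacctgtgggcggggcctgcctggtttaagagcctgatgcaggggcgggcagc
Xaf1: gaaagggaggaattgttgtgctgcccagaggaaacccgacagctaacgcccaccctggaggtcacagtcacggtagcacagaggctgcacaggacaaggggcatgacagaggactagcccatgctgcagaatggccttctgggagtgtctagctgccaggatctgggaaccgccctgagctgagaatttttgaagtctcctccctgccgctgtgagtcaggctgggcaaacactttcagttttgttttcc

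The printed stretches are the 250 bases before the annotated start (RefSeq, GRCm38.p6), at chr16:10785537-10785786 on the minus strand for Socs1 and chr11:72301379-72301628 on the plus strand for Xaf1, 5′ to 3′ along the gene. Capitals mark matches to GAS (TTCNNNGAA) or to the core of ISRE (GAAANNGAA), searched on both strands. Socs1 had 2 overlapping ISRE core matches, GAAAGAGAA and GAAACCGAA, which begin 83 and 77 bases before the start, and Xaf1 had 0 matches of either motif. Windows of 250 bases before to 50 after the start were found for 14166 of the 20442 symbols tested, and 8.94% of those genes held an ISRE core and 8.45% a GAS motif. Among the interferon-stimulated genes 51 of 67 had a window, with 58.82% and 29.41%. Among genes called higher the shares were 6.79% and 5.71% (280 genes), and among genes called lower 12.21% and 12.21% (131 genes). Matches of the 2 motifs shared bases in 54 of 32851 windows. A match is a stretch of letters and not a shown binding site.

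Socs1, the feedback inhibitor of interferon receptor signalling, stood at 1.68, 1.95, 0.904, 1.37 and 2.4 CPM in healthy and 47, 6.13, 81.8, 46.2 and 46.6 CPM in EAE NeuN-negative libraries. NeuN-positive libraries held it at 4.1, 4.74, 0.895, 3.36 and 3.58 CPM in healthy and 6.64, 13.9, 25.2, 3.32 and 11 CPM in EAE. It rose 26.7-fold in NeuN-negative nuclei, without overlap and least in replicate 2, and 3.57-fold in NeuN-positive nuclei, where the groups overlapped. The difference was -2.90 ± 0.73 (adjusted p = 0.0339). Xaf1, a pro-apoptotic interferon-induced protein, had the opposite difference, 2.28 ± 0.59 (adjusted p = 0.037). It stood at 60.7, 65.4, 47, 52.8 and 41.7 CPM in healthy and 49.4, 25.8, 139.6, 36.6 and 37.3 CPM in EAE NeuN-negative libraries, which overlapped, and at 1.8, 1.14, 2.09, 3.15 and 1.26 CPM in healthy and 7.92, 13.9, 15.9, 7.06 and 4.34 CPM in EAE NeuN-positive libraries, which did not. Without the 3 mice the adjusted p of Xaf1 was 0.175.

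No immunoproteasome gene was called in the difference: 0 of 5 higher and 0 of 5 lower, with a median of -0.683 and median EAE effects of 2.48 in NeuN-negative and 1.8 in NeuN-positive nuclei. Psmb8, the inducible subunit LMP7, stood at 9.15, 9.63, 12, 16.6 and 6.22 CPM in healthy and 155, 47.7, 269, 101 and 101 CPM in EAE NeuN-negative libraries. NeuN-positive libraries held it at 2.1, 1.88, 2.19, 4.73 and 1.44 CPM in healthy and 33.3, 77, 71.9, 56.8 and 30.6 CPM in EAE, and in each sort every EAE library lay above every healthy one. It rose 12.6-fold and 22-fold, and the difference was 0.80 ± 0.56 with a 95% interval of -0.36 to 1.96 (adjusted p = 0.478). For the inducible subunits Psmb9 and Psmb10 the differences were 1.10 ± 0.61 (-0.15 to 2.36, adjusted p = 0.343) and -0.68 ± 0.46 (-1.62 to 0.26, adjusted p = 0.45). Without the 3 mice Psmb10 was called (adjusted p = 0.0401) and Psmb8 turned to -0.05. Psme1, a chain of the interferon-induced proteasome activator, had a difference of -1.52 ± 0.48 that was not called (adjusted p = 0.0816) and was with the replicate block (0.0259), with DESeq2 size factors (0.0316) and without the 3 mice (0.0215). Psmb5, the constitutive counterpart of Psmb8, had a difference of 0.29 ± 0.56 (-0.85 to 1.44), and 0 of 34 standard proteasome genes were called (median 0.368). At an unadjusted p under 0.05 edgeR gave 1 immunoproteasome and 0 standard proteasome genes, and the Wald test and limma voom called the same numbers after adjustment. Over all 20444 tested genes the counts were 3724 at the unadjusted p, 1529 with the Wald test and 4926 with limma voom.

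Antigen presentation genes had high EAE to healthy ratios in both sorts. Of 19 genes of the class I pathway 0 were called (2 lower at an unadjusted p under 0.05 with edgeR, 2 lower with the Wald test, 1 higher and 6 lower with limma voom), with a median difference of -0.521 and median EAE effects of 2.97 and 2.18. Over all 20444 tested genes the lower counts in these 3 were 1449, 857 and 1867, and limma voom called 3059 higher. H2-K1, a class I heavy chain whose reads can be shared with its close relatives, stood at 122, 112, 40.2, 95.1 and 105 CPM in healthy and 2232, 378, 2836, 560.2 and 1569.9 CPM in EAE NeuN-negative libraries. NeuN-positive libraries held it at 18.4, 11.7, 11.3, 20.5 and 10.7 CPM in healthy and 445, 390.4, 913, 395 and 423 CPM in EAE. It rose 15.9-fold and 35.3-fold, a difference of 1.15 ± 0.62 (95% interval -0.12 to 2.41, adjusted p = 0.328). For B2m, the light chain, the difference was 0.49 ± 0.50 (-0.54 to 1.52, adjusted p = 0.655), and it turned to -0.23 without the 3 mice.

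Of 10 class II genes, 1 was called, and lower (0.822% of all tested genes were). H2-DMa, the chaperone that loads peptide on class II molecules, stood at 6.2, 8.86, 13.6, 9.23 and 9.23 CPM in healthy and 65.2, 19.7, 78.2, 45 and 43.8 CPM in EAE NeuN-negative libraries, without overlap, and at 30, 31.2, 26.3, 27.1 and 22.2 CPM in healthy and 35.6, 30.9, 51.6, 19.9 and 24.8 CPM in EAE NeuN-positive libraries, which overlapped. The difference was -2.18 ± 0.47 (adjusted p = 0.0176), and H2-DMa was higher in NeuN-positive nuclei of all 5 healthy mice. The median of the class II list was -0.017.

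**Figure D5:**
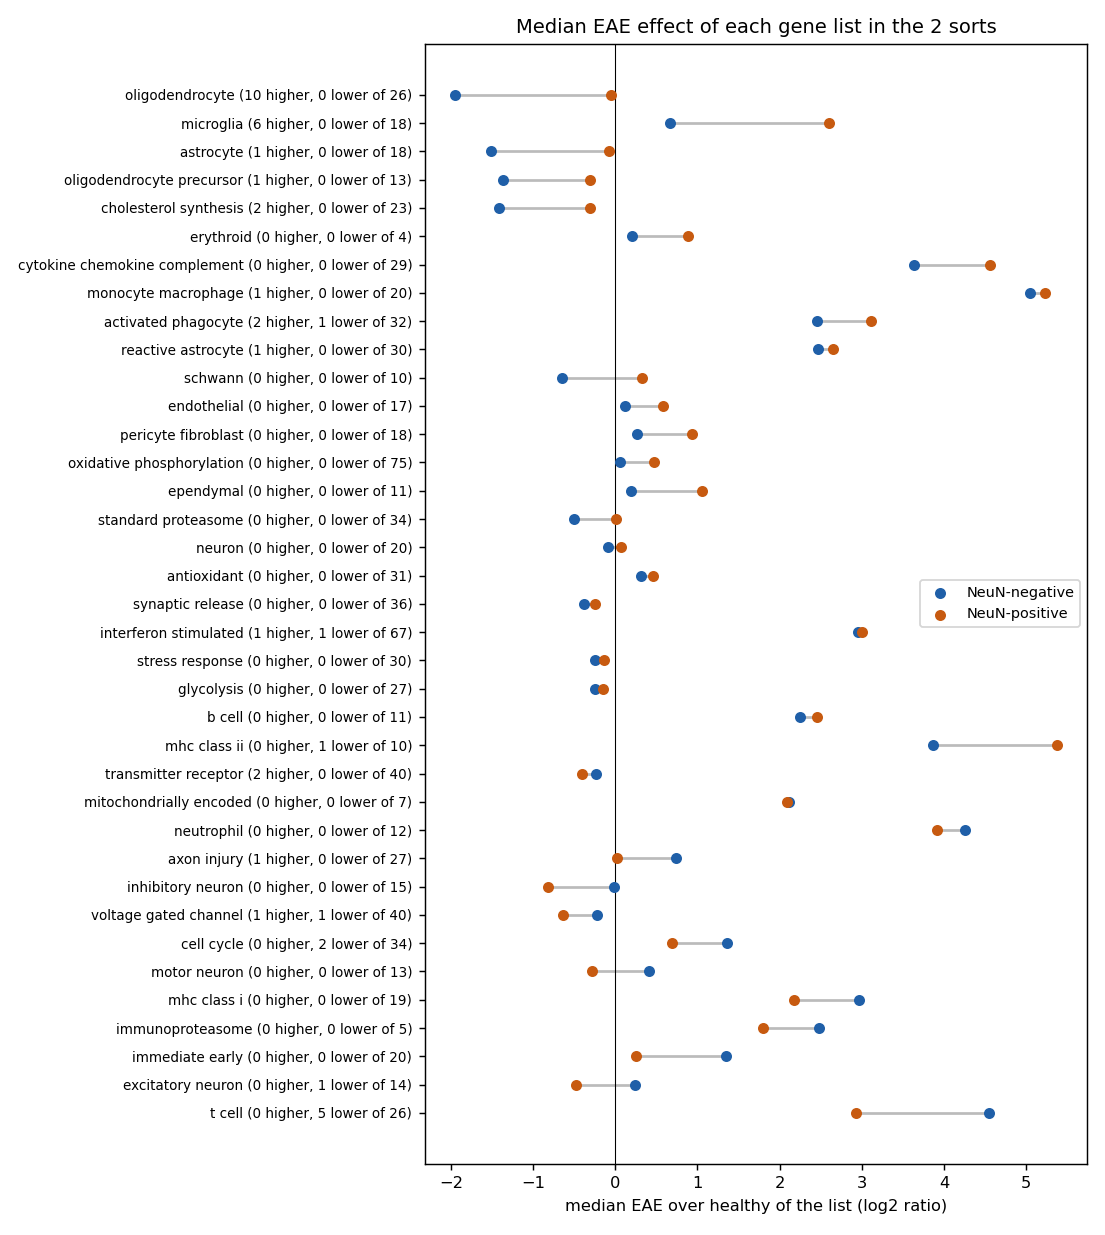
Median EAE effect (log2 ratio of EAE to healthy) of the tested members of each of the 37 gene lists in NeuN-negative (blue) and NeuN-positive nuclei (orange), ordered by the median difference, with the number of members called higher and lower in the difference. The oligodendrocyte, microglia, astrocyte, precursor and cholesterol lists lie at the top and the T cell list at the bottom.

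The lists of neuron, inhibitory, excitatory and motor neuron and synaptic release genes held 1 call in the difference of the EAE effects. Rbfox3, the gene of the sorting marker, stood at 14.3, 23.4, 36.8, 33.8 and 40.4 CPM in healthy and 19.8, 19.7, 32.8, 56.3 and 20.1 CPM in EAE NeuN-negative libraries. NeuN-positive libraries held it at 351, 335, 305, 313 and 263 CPM in healthy and 186, 117, 264, 238 and 165 CPM in EAE, where EAE 3 and healthy 5 were at about one level and the other EAE libraries lay lower. Its difference was -0.69 ± 0.47 (95% interval -1.65 to 0.27, adjusted p = 0.454). None of the 20 neuron, 15 inhibitory neuron, 13 motor neuron and 36 synaptic release genes was called (medians 0.365, -0.298, -0.486 and 0.181). At an unadjusted p under 0.05 edgeR gave 1, 4, 1 and 5 of them, the Wald test called 0, 1, 1 and 5 after adjustment, and limma voom 3, 6, 1 and 8. Of all 20444 tested genes, 3724 passed at the unadjusted p, and the Wald test called 1529 and limma voom 4926. The 14 excitatory neuron genes had a median difference of -1.09, and 4 of their estimates were above 0. At an unadjusted p under 0.05 edgeR gave 5 of them, all lower. After adjustment the Wald test called 3, limma voom 8 and the replicate block 3, all lower. Over all tested genes the lower counts were 1449 at the unadjusted p, 857 with the Wald test, 1867 with limma voom and 500 with the block. Without the 3 mice 0 were called, with a median of -1.06. The 1 call of the main fit was Lmx1b, a transcription factor of dorsal horn neurons. It fell in NeuN-positive nuclei from 57.6, 56.8, 52.2, 42.1 and 44.3 CPM in healthy to 16.7, 9.99, 33.8, 16.6 and 14.6 CPM in EAE libraries, without overlap. In NeuN-negative libraries Lmx1b stood at 3.36 to 8.1 CPM in healthy and 3.89 to 12.1 CPM in EAE, and the difference was -1.84 ± 0.50 (adjusted p = 0.0445; 0.168 without the 3 mice).

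The lists of voltage-gated channels and transmitter receptors gave 2 calls each. Of all tested genes 1.74% were called higher and 0.822% lower, and 9.74% and 2.45% with the replicate block. Cacna1d, a pore subunit of L-type calcium channels, stood at 104, 105, 61.7, 73.1 and 104 CPM in healthy and 36.7, 27.7, 77.1, 31.3 and 38 CPM in EAE NeuN-positive libraries, which overlapped through EAE 3 and healthy 3. In NeuN-negative libraries it stood at 17.7, 19.9, 11.9, 14.8 and 22.8 CPM in healthy and 25.8, 26.8, 24.6, 18.6 and 27.5 CPM in EAE, and the difference was -1.58 ± 0.42 (adjusted p = 0.0393). The calcium channel beta subunit Cacnb4 had the opposite sign, 2.07 ± 0.48 (adjusted p = 0.0219), from a fall in NeuN-negative nuclei of 5.04-fold. These were the 2 calls among 40 voltage-gated channel genes (median -0.316, 6 higher and 4 lower with the replicate block). Among 40 transmitter receptor genes (median -0.0649, 6 and 1 with the block) 2 were called higher. Gria4, an AMPA receptor subunit, stood at 93.9, 117, 54.9, 90.7 and 132 CPM in healthy and 52.8, 20.3, 44.7, 45.8 and 68.3 CPM in EAE NeuN-negative libraries, and at 463, 448, 326, 401 and 496 CPM in healthy and 765, 437, 519.9, 689 and 962 CPM in EAE NeuN-positive libraries. Its difference was 1.73 ± 0.45 (adjusted p = 0.0393), and that of Gabra2, a GABA receptor subunit, was 2.36 ± 0.60 (adjusted p = 0.0342; 0.0652 with DESeq2 size factors and 0.0802 without the 3 mice). Stmn4, a microtubule regulator and the single call of 27 axon injury genes (median -0.261), was most abundant in healthy NeuN-negative nuclei, fell 6.34-fold there, and had a difference of 2.12 ± 0.53 (adjusted p = 0.032).

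None of 27 glycolysis, 75 oxidative phosphorylation, 31 antioxidant, 30 stress response and 20 immediate early genes was called in either direction (medians 0.0861, 0.456, 0.25, 0.125 and -0.875). At an unadjusted p under 0.05 edgeR gave 4, 4, 7, 2 and 6 of them, the Wald test called 3, 0, 0, 0 and 3 after adjustment, and limma voom 11, 3, 9, 2 and 10. The immediate early genes in these counts were all lower with edgeR and the Wald test, and 1 was higher and 9 lower with limma voom. Over all 20444 tested genes the counts were 3724 at the unadjusted p, 1529 with the Wald test and 4926 with limma voom. Without the 3 mice 4 immediate early genes were called lower and 0 higher, beside 362 lower of 19868 genes tested. The median of that list was then -1.32, against -0.0248 over all genes of that fit. In the same fit 1 glycolysis and 1 antioxidant gene were called lower. The replicate block called 4 glycolysis genes higher and 2 lower, and 1 immediate early gene higher and 2 lower. Pfkfb3, the glycolytic regulator, stood at 109, 111, 70.2, 101 and 114 CPM in healthy and 145, 39.4, 113, 44.4 and 80.7 CPM in EAE NeuN-negative libraries, and at 57.6, 52.8, 47.2, 59.3 and 67.2 CPM in healthy and 66.9, 34.4, 56, 39.6 and 56.2 CPM in EAE NeuN-positive libraries, with overlap in both sorts. Its difference was 0.09 ± 0.44 with a 95% interval of -0.82 to 0.99 (adjusted p = 0.947). With DESeq2 size factors it was -0.12.

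Of 34 cell cycle genes 2 were called lower (0.822% of all tested genes were), and the median was -0.415. Birc5, an inhibitor of apoptosis made in dividing cells, stood at 2.34, 4.18, 4.65, 2.73 and 2.4 CPM in healthy and 20.1, 20.6, 8.85, 20.5 and 28.1 CPM in EAE NeuN-negative libraries, and at 6.75, 8.97, 12.7, 9.94 and 6.7 CPM in healthy and 12.2, 19.5, 11.3, 9.66 and 19.4 CPM in EAE NeuN-positive libraries. It rose 6.04-fold in NeuN-negative nuclei, its estimate in NeuN-positive nuclei was 0.68 ± 0.35, and the difference was -1.91 ± 0.51 (adjusted p = 0.0401), and for the cyclin Ccne1 it was -1.97 ± 0.53 (adjusted p = 0.0445). Birc5 was called in 5 and Ccne1 in 3 of the 20 fits that left out a library. None of 17 endothelial, 18 pericyte and fibroblast, 11 ependymal, 10 Schwann cell, 4 erythroid and 7 mitochondrially encoded genes was called (medians 0.544, 0.533, 0.374, 0.572, 0.763 and -0.074). At an unadjusted p under 0.05 edgeR gave 1, 3, 1, 2, 0 and 0 of them, the Wald test called 0, 0, 0, 1, 0 and 0, and limma voom 1, 7, 2, 2, 0 and 0. Of all 20444 tested genes, 3724 passed at the unadjusted p, and the Wald test called 1529 and limma voom 4926.

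Whether the counting used strand was not stated, and without it the reads of genes that overlap on opposite strands cannot be told apart. Among the genes above, Ceacam16, Myo1h, H2-DMa, Cacna1d, Psme1, B2m, Psmb9, Cx3cr1, Cnp, P2ry12, Csf1r and Gmfg overlap a protein-coding gene on the other strand in GRCm38 (GENCODE M21), Cntn5, Fstl4, Cd3e, Psmb10, Psmb8, Pfkfb3, Aqp4, Pdgfra, Myh14 and Mcam an antisense transcript, and Fpr2 its paralog Fpr3 on the same strand. Protein-coding genes on the same strand also overlap Trf (Gm20425), Itgam (Gm49368) and Cx3cr1 (Gorasp1, Csrnp1 and Xirp1). Where the sign of a list's median difference is near 0 it also depends on scaling: with DESeq2 size factors the medians of the interferon-stimulated, B cell, synaptic release, glycolysis and stress response lists became negative (-0.0339, -0.31, -0.0556, -0.124 and -0.15). The medians of these 5 lists without the 3 mice were -0.41, -0.406, -0.0463, -0.229 and -0.309, and those of the activated phagocyte, reactive astrocyte, endothelial, oxidative phosphorylation, standard proteasome, erythroid and antioxidant lists also turned negative (-0.163, -0.0495, -0.0235, -0.0867, -0.0731, -0.0718 and -0.0666).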

How the data were processed

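Polyadenylated RNA of sorted spinal cord nuclei was sequenced, per the labels' protocols. The authors deposited 1 table of raw counts per gene for all 20 libraries. STAR 2.4 and DESeq2 and the builds GRCm39 and mm10 are named in the submitters' processing notes without a role, and the sources used here do not give the counting tool, its strand setting or the annotation. Of 43629 genes, 1167 had no symbol (0.252 to 0.414% of each library's counts) and 5168 were at 0 throughout. No 2 libraries were identical.

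Counts were analysed in R 4.3.3 with edgeR 4.0.16: filterByExpr, TMM scaling, a robust quasi-likelihood fit of the 4 groups, the contrast of contrasts described below, and Benjamini-Hochberg adjustment over all 20444 genes tested. CPM values use TMM scaling, and shares of counts do not. Standard errors are the size of the log2 difference divided by the square root of F. The script was tested on simulated data. Alternatives used DESeq2 1.42.0, limma 3.58.1, other scalings and filters, a block by replicate number, thinning, a mitochondrial covariate and libraries left out.

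The numbers in the labels were taken to pair the sorts because deviations from the group means correlated at 0.105 to 0.384 in each EAE pair and 0.327 to 0.755 in each healthy pair, against -0.207 to 0.108 and -0.541 to 0.373 for unlike numbers. The members and the 37 gene lists (898 entries, 895 in the table) were chosen with earlier results of these data known. Genes named by rule were 11 fixed genes, the 12 largest called differences each way among genes whose mean log2 CPM reached 1 and that had 10 or more counts in each group and an informative symbol, and up to 2 called members of each list in each direction. Other named genes were chosen after their values were seen, and some genes are not reported here. Positions come from GENCODE M21 (GRCm38) and windows before gene starts from RefSeq (GRCm38.p6). The depth of 3149209 to 37689267 counts and the 5 libraries per group limit the precision.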

Additional observations from a re-analysis of the deposited data

Results flagged for a closer look

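The EAE effect itself differed between the sorts by the test of the difference for 356 genes that were higher and 168 that were lower in NeuN-positive nuclei. On the log2 scale the differences of myelin and oligodendrocyte genes were 3.22 for Opalin, 2.54 for Trf, 2.49 for Cldn11, 2.38 for Mal, 2.2 for Il33, 2.19 for Fa2h, 2.17 for Ugt8a, 2.13 for Apod and 1.87 for Cnp. The sterol enzymes Dhcr7 and Msmo1 stood at 1.83 and 1.74, Pdgfra at 2.48 and Gfap at 1.8. Among other genes that fell in NeuN-negative nuclei, Olfml1 stood at 3.26, Mcam at 3.11, Tnfaip6 at 3.12, Myh14 at 3.04, Pls1 at 3.01 and Trim36 at 2.94.

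Microglial and leukocyte genes differed by 3.41 for Sash3, 3.12 for Gmfg, 3.06 for Cd53, 3.06 for Nlrc4, 3.01 for Ccl22, 2.87 for Cd14, 2.74 for Trem2, 2.58 for Itgam, 2.56 for Selplg, 2.53 for Fcgr3, 2.46 for Csf1r, 2.24 for Tyrobp, 2.11 for C1qc and 2.01 for Tmem119. T cell genes differed by -3.24 for Lck, -3.09 for Skap1, -2.88 for Zap70, -2.7 for Lat and -1.91 for Bcl11b. Hpse stood at -4.97 and Fpr2 at -5.25. The genes at a few CPM stood at -5.16 for Tlr9, -5.12 for Cntn5, -4.95 for Fstl4, -4.92 for Htr1d, -4.66 for Ceacam16, -4.56 for Ap1m2, -4.36 for Nkx6-3, -4.35 for Myo1h, -4.34 for Pla2g5 and -4.32 for Cngb1. Of interferon and antigen presentation genes, Socs1 differed by -2.9, H2-DMa by -2.18 and Xaf1 by 2.28. Gabra2 (2.36), Stmn4 (2.12), Cacnb4 (2.07) and Gria4 (1.73) were higher, and Ccne1 (-1.97), Birc5 (-1.91), Lmx1b (-1.84) and Cacna1d (-1.58) were lower in their EAE effect.

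Single libraries stood apart from the other 4 of their group in 37 of 340 groups of values tested with Dixon's ratio, whose 95% critical value chance exceeds in about 1 in 20 groups. EAE NeuN-positive 2 was highest for B2m (664 CPM), Cd53 (37.2 CPM), Gmfg (13 CPM), Itgam (59.6 CPM), Pdgfra (21.4 CPM), Psmb5 (12.4 CPM) and Tnfaip6 (8.08 CPM) and lowest for Htr1d (0 CPM). EAE NeuN-positive 3 was highest for Cacna1d (77.1 CPM), Ceacam16 (4.28 CPM), H2-K1 (913 CPM) and Lmx1b (33.8 CPM). Among EAE NeuN-negative libraries, replicate 1 was highest for Pdgfra (37.7 CPM), replicate 3 for Xaf1 (139.6 CPM) and replicate 4 for Lmx1b (12.1 CPM).

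Healthy NeuN-positive 3 was highest for Mbp (30941 CPM), Mobp (11581 CPM), Bcl11b (26.3 CPM), Fstl4 (15.3 CPM), Tlr9 (3.38 CPM), Cd4 (1.59 CPM) and Cd3e (0.895 CPM), for the mitochondrially encoded share (3.003%) and for the share of its 10 most abundant genes (12.18%). Healthy NeuN-negative 3 was highest for Mobp (15531 CPM), Skap1 (4.52 CPM), Fpr2 (2.07 CPM), Htr1d (1.68 CPM), Nkx6-3 (0.646 CPM) and the share of the 10 most abundant genes (15.56%). Healthy NeuN-positive 4 was highest for Lyz2 (15.5 CPM), Selplg (5.48 CPM), Psmb8 (4.73 CPM) and Fcgr3 (2.54 CPM). Healthy NeuN-negative 2 was highest for Cd14 (11.7 CPM), and replicate 5 was highest for B2m (133 CPM) and lowest for Ccl22 (4.69 CPM).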

How the results depend on the processing

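The counts of 356 higher and 168 lower genes depended on the fit. The higher count was 236 with DESeq2 size factors, 672 with DESeq2's Wald test, 3059 with limma voom, 183 without a count filter, 776 with the mitochondrial share as a covariate and 47 with a minimum change of 1.5-fold. The lower count was 960, 1867, 85, 316 and 25 under the last 5 of these, and 362 without the 3 mice. With the replicate block, by the number in the labels, 1992 genes were higher and 500 lower. Among the genes named with values, the block lost the calls of Htr1d, Ap1m2 and Cd53 (adjusted p = 0.052, 0.058 and 0.0741), made calls of Cx3cr1, Mag, P2ry12, Mog, Aqp4 and Psme1, and changed no other call of those named above.

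Leaving out 1 library gave 63 to 754 higher and 21 to 353 lower genes. The higher count was 135, 72, 222 and 170 without healthy NeuN-negative 1 to 4, 93, 71, 219 and 183 without healthy NeuN-positive 1, 2, 4 and 5, 228, 754 and 149 without EAE NeuN-negative 2 to 4, and 143, 135, 86 and 63 without EAE NeuN-positive 1, 2, 4 and 5. The lower count was 48, 21, 353 and 61, then 49, 32, 71 and 78 without those healthy libraries, 279 and 82 without EAE NeuN-negative 3 and 4, and 46, 76 and 62 without EAE NeuN-positive 1, 4 and 5. The cause was not tested. Of 61 called genes given with values, 14 were called in all 20 of these fits (Cd14, Cntn5, Fcgr3, Fpr2, Fstl4, Hpse, Lck, Myh14, Opalin, Pla2g5, Pls1, Sash3, Skap1 and Trim36), 26 in under 10 (Ap1m2, Apod, Bcl11b, Birc5, Cacna1d, Ccne1, Cd53, Cldn11, Csf1r, Fa2h, Gabra2, Gfap, Gria4, Il33, Lmx1b, Msmo1, Nlrc4, Pdgfra, Socs1, Stmn4, Tlr9, Tmem119, Tnfaip6, Trem2, Tyrobp and Xaf1), and all 61 kept their sign in all 20. Without the EAE 2 and EAE 4 mice alone, an alternative chosen after seeing the data, 338 genes were higher and 141 lower, and 33 of the 61 lost their call.

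Signs changed for 8 genes, none of them called. Without the 3 mice the difference was -0.23 for B2m, 0.08 for Cd3e, -0.08 for Lyz2, -0.21 for Pfkfb3, -0.15 for Psmb5 and -0.05 for Psmb8. Without the EAE 2 and EAE 4 mice it was -0.16 for B2m, -0.66 for Mbp, -0.56 for Mobp, -0.07 for Pfkfb3 and -0.03 for Psmb5. Without EAE NeuN-positive 2 it was -0.58 for Mbp, -0.35 for Mobp and -0.12 for Psmb5. It was -0.26 for Mbp without healthy NeuN-negative 3, -0.02 for Psmb5 without healthy NeuN-negative 5 and -0.11 with limma voom, and 0.24 for Cd3e without healthy NeuN-positive 3. For Pfkfb3 it was -0.12 with DESeq2 size factors, -0.13 with the Wald test, with thinning to the smallest total and without EAE NeuN-positive 5, -0.03 without healthy NeuN-positive 3, and -0.17 and -0.07 without EAE NeuN-negative 2 and 4. Over the 20 fits without 1 library, the difference ranged from -1.56 to 0.24 for Cd3e, -0.58 to 1.72 for Mbp, -0.35 to 1.96 for Mobp, -0.17 to 0.41 for Pfkfb3 and -0.12 to 0.46 for Psmb5. With all libraries thinned to the smallest total, 289 genes were higher and 197 lower, and without the smallest library, EAE NeuN-negative 2, 138 were lower.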
